A study of Mus musculus with 20 samples.

Results

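Casp4, Casp1, Gsdmd, Il18, Nlrp6, and Pycard form the core of inflammasome signaling and pyroptosis that was followed here in the proximal colon (PC) of mice fed resistant potato starch (RPS). The genes were chosen by name, and all 6 were found among the 12701 genes of the count table. RNA was sequenced from 20 PC samples of C57BL/6 mice, an inbred laboratory strain, with 1 library each. After weaning at 3 to 4 weeks of age, every mouse ate the Total Western Diet (TWD), which mimics the nutrient intake of Americans, for 6 weeks. For 3 further weeks, mice either stayed on the TWD alone (0% RPS) or received it with 2, 5, or 10% RPS, and each of these 4 diets gave 5 libraries. RPS is uncooked starch, most of which passes undigested to the large intestine, where bacteria ferment it. The question was which of these genes followed the level of RPS.

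Inflammasomes are protein complexes that assemble in the cytosol when a sensor such as NLRP6 detects microbial or damage signals. The adaptor ASC, encoded by Pycard, links the sensor to pro-caspase-1, and active caspase-1 matures IL-18 and cleaves gasdermin D, whose freed part forms pores in the plasma membrane. In the noncanonical route, caspase-11, which is encoded by Casp4 in the mouse, binds lipopolysaccharide (LPS) in the cytosol and cleaves gasdermin D itself. In the colon, epithelial cells express many of these genes, and the pathway is studied for its part in defense against bacteria and in shedding of infected cells. The proteins are activated by assembly and cleavage, which RNA levels do not measure.

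The libraries held 20581013 to 35083751 counts, and the 6 genes had between 266 and 10357 counts in each library. At this depth 3 counts, taken as the limit of detection, equal 0.086 to 0.146 CPM (counts scaled to the library total), which covers counting error only. All 10 markers of colon epithelium and all 6 of smooth muscle were in the table, as were 8 of 8 macrophage markers and 4 of 6 B and plasma cell markers, whereas the 7 neutrophil markers and 6 of the 7 T cell markers were not analysed here. At 10% RPS, 8 of the 10 epithelial markers had positive log2 fold changes against 0% RPS (median 0.14) and none was called. Replicate 2 of the 0% RPS diet stood apart from the other 19 libraries. Its summed normalized counts (counts divided by a size factor of the library) were 12028 for B and plasma cell markers (1615 to 5485 in the others), 6239 for macrophage markers (2364 to 3957), 268552 for smooth muscle markers (110190 to 237495), and 499570 for epithelial markers (621183 to 955325). Such sums follow the most abundant markers. The epithelial sum was low mainly through Car1, at 70115 in this library beside a 0% RPS mean of 247218, so it does not show low epithelial markers in general. Jchain, at 11831, made up most of the B and plasma cell sum. It was also the lowest for Trbc2, the T cell marker in the table, at 18.7 (24.5 to 63.2), and for the 3 of 6 small intestine markers in the table, at 155 (1017 to 9044), while its goblet cell sum of 815008 lay within the range of the others. Log2 fold changes at 10% RPS are also given without this library for Casp4, Casp1, Gsdmd, and Il18. In whole tissue, fewer cells of a type and less RNA per cell cannot be told apart.

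Gsdmd, Nlrp6, Casp1, and Pycard were abundant in the PC, and Il18 and Casp4 were much lower. Levels were set side by side as TPM (counts per length of merged exons, scaled to a common total in each library). The median over the 20 libraries was 193 for Gsdmd (range 127 to 232), 173 for Nlrp6 (152 to 197), and 164 for Casp1 (133 to 188). These ranges overlap. Within a library, Gsdmd exceeded Casp1 in 18 of 20 and Nlrp6 in 15 of 20, while Nlrp6 exceeded Casp1 in 13 of 20. Pycard followed with a median of 92.6 TPM (77.6 to 103), below every Casp1 value. Il18, at 22.1 TPM (11.3 to 39.04), and Casp4, at 20.02 TPM (14.4 to 32.1), were the lowest, with ranges that overlapped each other and lay below every Pycard value. Merged exons join all annotated transcripts of a gene and covered 4235 bases for Pycard, 5249 for Casp4, and 3136 for Casp1. They can be longer than the RNA that is present, so the order of the genes in TPM depends on the annotation.

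**Figure D1:**
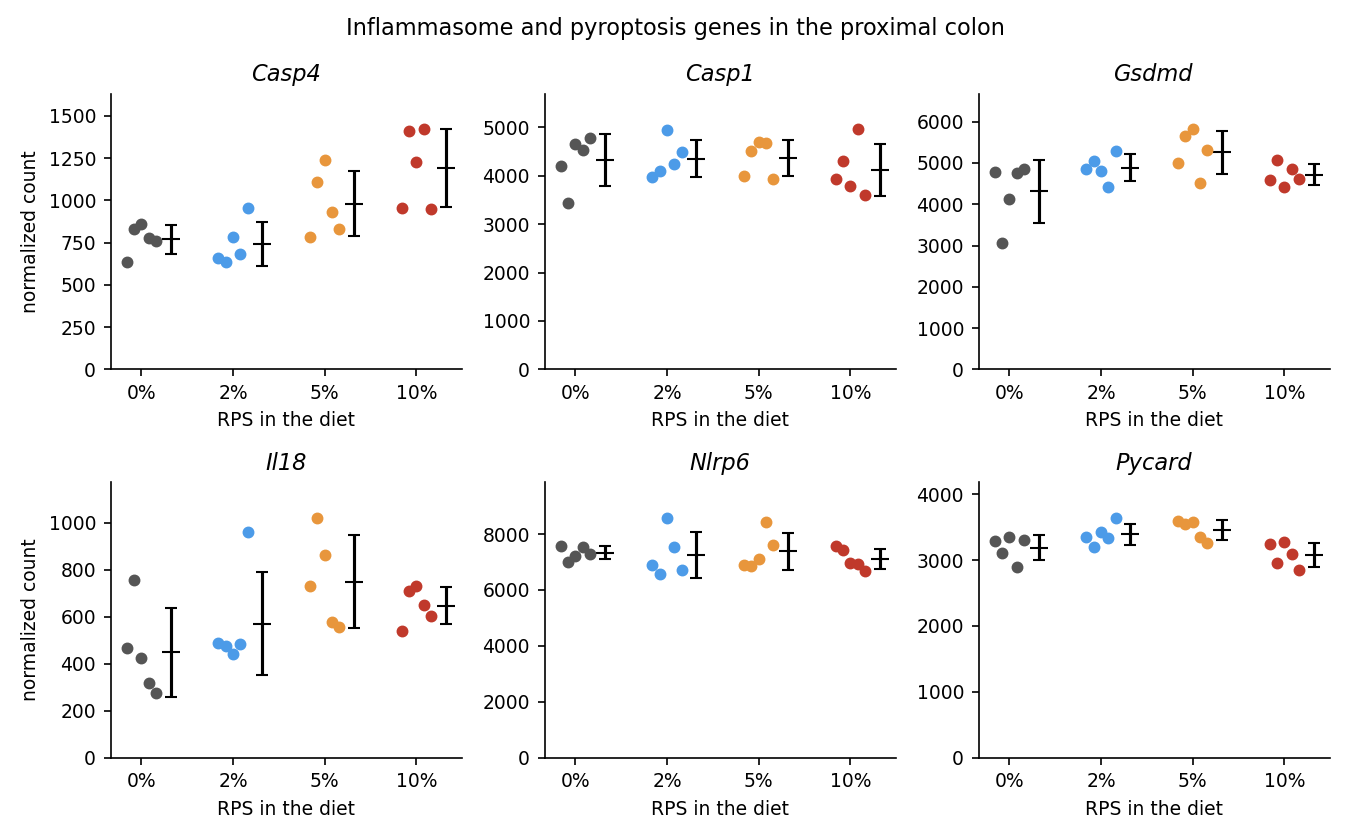
Normalized counts (y axis, starting at 0) of the 6 genes by percentage of RPS in the diet (x axis). Each point is a library, and the bar beside each group gives the mean and SD (n = 5). The 10% RPS libraries of Casp4 all lie above the highest 0% RPS library, at 858, while the points of Casp1 and Nlrp6 overlap at every level of RPS.

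With all libraries included, Casp4 was the only one of the 6 genes called changed with RPS. The call required a DESeq2 p of at most 0.05 after adjustment over the whole table, together with a fold change of at least 1.5. Casp4 (ENSMUSG00000033538) lies on the plus strand of chromosome 9, from 5308828 to 5336783 on GRCm39, just beyond Casp1, which ends at 5307290. No stretch of 50 bases of its transcripts occurs in another annotated gene, and no gene overlaps it, so in this annotation it shares no reads with Casp1. The promoters of these adjacent genes are shown because one of them was called changed with diet and the other was not. The sequences are from RefSeq on GRCm38.p6, plus strand, at chr9:5308599-5308898 for Casp4 and chr9:5298267-5298566 for Casp1, and run from 250 bases before to 50 bases after a transcription start. Capitals mark matches to the consensus site of NF-κB, a transcription factor of innate immune responses.
Casp4: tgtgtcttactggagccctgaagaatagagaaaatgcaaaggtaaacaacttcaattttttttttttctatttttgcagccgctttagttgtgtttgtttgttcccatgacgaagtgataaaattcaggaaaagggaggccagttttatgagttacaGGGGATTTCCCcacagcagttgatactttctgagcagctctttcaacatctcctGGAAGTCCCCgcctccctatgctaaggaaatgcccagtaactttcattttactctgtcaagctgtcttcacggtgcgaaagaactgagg
Casp1: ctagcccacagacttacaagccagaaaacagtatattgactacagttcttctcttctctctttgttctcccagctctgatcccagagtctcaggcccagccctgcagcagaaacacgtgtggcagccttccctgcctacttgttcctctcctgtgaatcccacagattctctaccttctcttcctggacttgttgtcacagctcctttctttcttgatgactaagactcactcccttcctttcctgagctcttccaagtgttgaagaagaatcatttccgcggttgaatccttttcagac
RefSeq lists a further start for Casp4 11 bases downstream, whose window holds the same matches. The capitals cover bases 158 to 168, where 2 matches on the plus strand overlap, and bases 212 to 221, with a match on the minus strand. A match to this consensus on either strand is found in 5.80% of the 32851 mouse promoters of the same length. Promoters of 5 of the 6 genes were available, and the other 4 held no match to it. No promoter of the 6 windows searched held the interferon-stimulated response element core GAAANNGAAA (3.44% of all promoters) or the STAT site TTCNNNGAA (8.30%). A match is a description of the letters only, and binding was not measured.

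In the mice fed the TWD alone, Casp4 measured 634, 828, 858, 775, and 759 normalized counts. At 2% RPS the values were 661, 636, 785, 680.4, and 952. Apart from the highest 2% RPS library, the ranges of these diets are nearly the same. At 5% RPS they were 786, 1111, 1240.2, 931, and 829.07, and 3 of the 5 exceeded the highest value of the TWD alone. At 10% RPS they were 955, 1411, 1225, 1419.5, and 948, and every library exceeded the highest 0% RPS library, which held for 1.35% of the 12576 genes with counts. The mean thus went from 771 ± 86.2 at 0% RPS to 743 ± 130.2 at 2% RPS, 979 ± 192 at 5% RPS, and 1192 ± 233 at 10% RPS (SD, n = 5).

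Compared with 0% RPS, Casp4 was 1.55-fold higher at 10% RPS (95% confidence interval 1.26 to 1.90). The log2 fold change was 0.63 ± 0.15 (SE), with an adjusted p of 0.00359 in DESeq2 and 0.0431 in edgeR. Of all genes tested, 0.536% were called higher in this comparison, and of the 6 genes only Casp4 was. The value lies close to the fold threshold: without replicate 1 at 0% RPS, or replicate 2 or 4 at 10% RPS, the log2 fold change was 0.57, 0.56, and 0.56, under 1.5-fold, with DESeq2 adjusted p values of 0.0152, 0.0156, and 0.0186. The other 7 of 10 fits without 1 library kept the call, and without replicate 2 at 0% RPS the log2 fold change was 0.66 (adjusted p = 0.00293). With the mean level of the epithelial markers as a covariate, it was 0.67 (adjusted p = 0.0440). All 7 goblet cell markers had positive log2 fold changes at 10% RPS, with a median of 0.46 and none called, and their sum ranged from 481233 to 815008 at 0% RPS and from 594993 to 1076940 at 10% RPS; their part in the Casp4 result was not tested. All 6 smooth muscle markers had negative log2 fold changes, with a median of −0.20, and sums from 121326 to 268552 at 0% RPS and from 124763 to 211476 at 10% RPS. All 8 macrophage markers were also negative, with a median of −0.09, and none of either list was called. The part of these markers in the Casp4 result was not tested either.

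At the lower levels of RPS the call was not reached. At 5% RPS the log2 fold change of Casp4 was 0.34 (95% interval 0.05 to 0.64) with an adjusted p of 0.221, and at 2% RPS it was −0.05 (−0.35 to 0.25, adjusted p = 0.943, both DESeq2). None of the 6 genes was called at 5% RPS, where 0.334% of all genes were called higher, or at 2% RPS, where 0.0239% were, and edgeR also called none of them. At an unadjusted p under 0.05, Casp4, Gsdmd, Il18, and Pycard passed at 5% RPS, and none passed at 2% RPS, in DESeq2 and in edgeR. Of all genes, 16.6% passed this unadjusted level at 5% RPS and 8.70% at 2% RPS in DESeq2 (15.9% and 8.09% in edgeR). The 3 comparisons share the 0% RPS libraries and are not independent.

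Levels of RPS were also compared directly. Casp4 was higher at 10% than at 2% RPS (log2 fold change 0.68 ± 0.15 SE, 1.60-fold, DESeq2 adjusted p = 0.0166), where 0.0478% of all genes were called higher. edgeR gave an adjusted p of 0.314 for this comparison, although the log2 fold change was again 0.68. The call was also lost without replicate 1, 2, or 4 at 2% RPS or replicate 4 at 10% RPS. There the log2 fold changes were 0.64, 0.63, 0.65, and 0.61, with DESeq2 adjusted p values of 0.0586, 0.102, 0.0816, and 0.0575. Without replicate 3 at 10% RPS, DESeq2 with its default filtering gave no adjusted p (log2 fold change 0.67, unadjusted p = 4.79e-05). Between 10% and 5% RPS, Casp4 differed by a log2 fold change of 0.28 (95% interval −0.01 to 0.58, DESeq2 adjusted p = 1), and the share of all genes called higher was 0.00796%. Between 5% and 2% RPS it differed by 0.40 (0.10 to 0.70, adjusted p = 1), where 0.00% of all genes were called. In that comparison neither DESeq2 nor edgeR called a gene, and before adjustment 359 and 320 genes, respectively, had a p below 0.05.

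A slope on the percentage of RPS was fitted to all 20 libraries. Casp4 rose by 0.070 ± 0.014 (SE) on the log2 scale per percentage point of RPS, which amounts to 0.70 over 10 points, with an adjusted p of 0.000368 in DESeq2 and 0.0211 in edgeR. A rising slope at an adjusted p of 0.05 or less was found for 2.40% of all genes, and among the 6 genes for Casp4 alone. This call was kept in all 20 fits that left out 1 library, with slopes from 0.063 to 0.077.

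**Figure D2:**
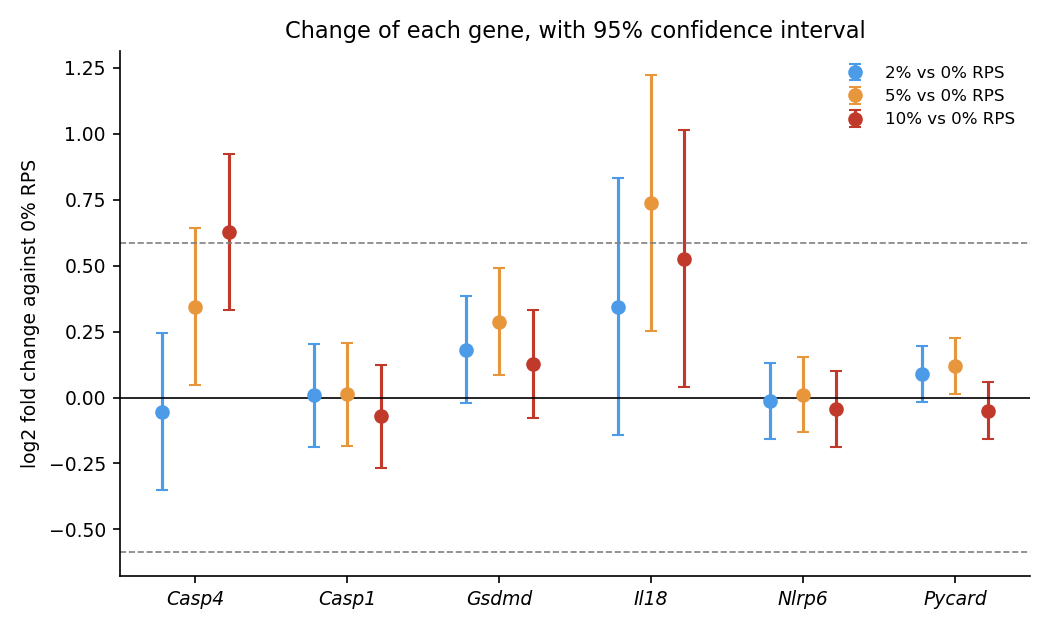
Log2 fold change of each gene against 0% RPS (y axis) at 2, 5, and 10% RPS, with the 95% confidence interval of DESeq2 as the bar. Dashed lines mark 1.5-fold in either direction. Casp4 at 10% RPS (0.63) and Il18 at 5% RPS (0.74) are the values above the upper dashed line, of which Casp4 alone passed the test.

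Casp1 encodes caspase-1, the protease of the canonical inflammasome. The values of the gene (ENSMUSG00000025888, chromosome 9, 5298508 to 5307290, plus strand, GRCm39) overlapped between all 4 diets. The TWD libraries gave 4203, 3435, 4664, 4539.65, and 4782 normalized counts, of which the lowest is replicate 2. At 10% RPS the values were 3928, 4305, 3799, 4957, and 3593, 4 of them within the range of the TWD libraries and 1 above it. The means were 4325 ± 542 at 0% RPS, 4351 ± 385 at 2% RPS, 4364 ± 369 at 5% RPS, and 4117 ± 537 at 10% RPS. The log2 fold change at 10% RPS was −0.07, with a 95% interval of −0.27 to 0.12 (DESeq2 adjusted p = 0.734), an interval that does not reach the size of the Casp4 change. It was −0.14 without replicate 2 at 0% RPS (DESeq2 adjusted p = 0.362), −0.15 without replicate 4 at 10% RPS, and −0.03 without replicate 5 at 10% RPS. The gene model Gm67740 overlaps Casp1 on the opposite strand.

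Gsdmd encodes gasdermin D, the pore-forming protein cleaved by both caspases. It (ENSMUSG00000022575, chromosome 15, 75733974 to 75739257, plus strand) measured 4772, 3061, 4119.9, 4753, and 4844 normalized counts at 0% RPS. Replicate 2 was again the lowest. At 5% RPS the values were 4997, 5661, 5811, 4515, and 5325, and 4 of 5 exceeded the highest 0% RPS library. At 10% RPS they were 4595, 5073, 4416, 4847, and 4615, inside the TWD range except for 2 libraries that lay above it. The log2 fold change was 0.18 at 2% RPS (adjusted p = 0.614), 0.29 at 5% RPS (95% interval 0.08 to 0.49, adjusted p = 0.118), and 0.13 at 10% RPS (−0.08 to 0.33, adjusted p = 0.510, all DESeq2). Without replicate 2 at 0% RPS, these became 0.08 at 2% RPS (adjusted p = 0.7502), 0.19 at 5% RPS (adjusted p = 0.142) and 0.03 at 10% RPS (adjusted p = 0.864). The direction at 10% RPS was kept, but most of its size rested on that library. Gm62577 overlaps Gsdmd on the opposite strand.

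Il18 encodes the cytokine IL-18, which is made as a precursor in the colon epithelium and matured by caspase-1. The gene (ENSMUSG00000039217, chromosome 9, 50466081 to 50493633, plus strand) had a coefficient of variation of 42.04% at 0% RPS, 38.4% at 2% RPS, and 26.2% at 5% RPS, above those of the other 5 genes at these levels, and of 12.1% at 10% RPS, where Casp4 (19.5%) and Casp1 (13.04%) varied more. The TWD libraries gave 468, 758, 426, 320.2, and 276 normalized counts, and replicate 2 was by far the highest. At 2% RPS the values were 489, 478, 441, 485, and 962, where replicate 5 stood apart from 4 libraries that lay close together. At 5% RPS they were 732, 1021, 864, 576, and 555. At 10% RPS they were 539, 709, 732, 652, and 605. Replicate 2 of the TWD lay above every 10% RPS library, so the ranges of the TWD and of 5 and 10% RPS overlap. The other 4 TWD libraries lay below all 10 libraries at 5 and 10% RPS. How many of all genes show such a pattern was not counted. The means were 450 ± 189 at 0% RPS, 571 ± 219 at 2% RPS, 749.7 ± 197 at 5% RPS, and 648 ± 78.2 at 10% RPS (SD, n = 5).

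None of the Il18 differences passed with all libraries. The log2 fold change was 0.35 at 2% RPS (−0.14 to 0.83, adjusted p = 0.698), 0.74 at 5% RPS (95% interval 0.25 to 1.22, adjusted p = 0.0899), and 0.53 at 10% RPS (0.04 to 1.01, adjusted p = 0.217, all DESeq2). At 2% RPS it was 0.07 without replicate 5 of that diet (adjusted p = 0.964), 0.21 without replicate 5 at 0% RPS (adjusted p = 0.9002), and 0.62 without replicate 2 at 0% RPS (adjusted p = 0.334), none of them called. The slope was 0.050 per percentage point (adjusted p = 0.248). Without replicate 2 at 0% RPS, Il18 was called higher at 5% RPS, with a log2 fold change of 1.01 (DESeq2 adjusted p = 0.00211), and at 10% RPS, with 0.80 (adjusted p = 0.0116). In the other 9 fits without 1 library, Il18 was not called at either level. With the epithelial markers as a covariate and all 20 libraries, the log2 fold change was 0.60 at 5% RPS (adjusted p = 0.599) and 0.36 at 10% RPS (adjusted p = 0.781). Of the 50-base windows of Il18, 3.87% also occur in another gene, and Bco2 and Tex12 overlap it on the opposite strand, whose reads cannot be told apart from its own unless strand was used in counting.

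**Figure D3:**
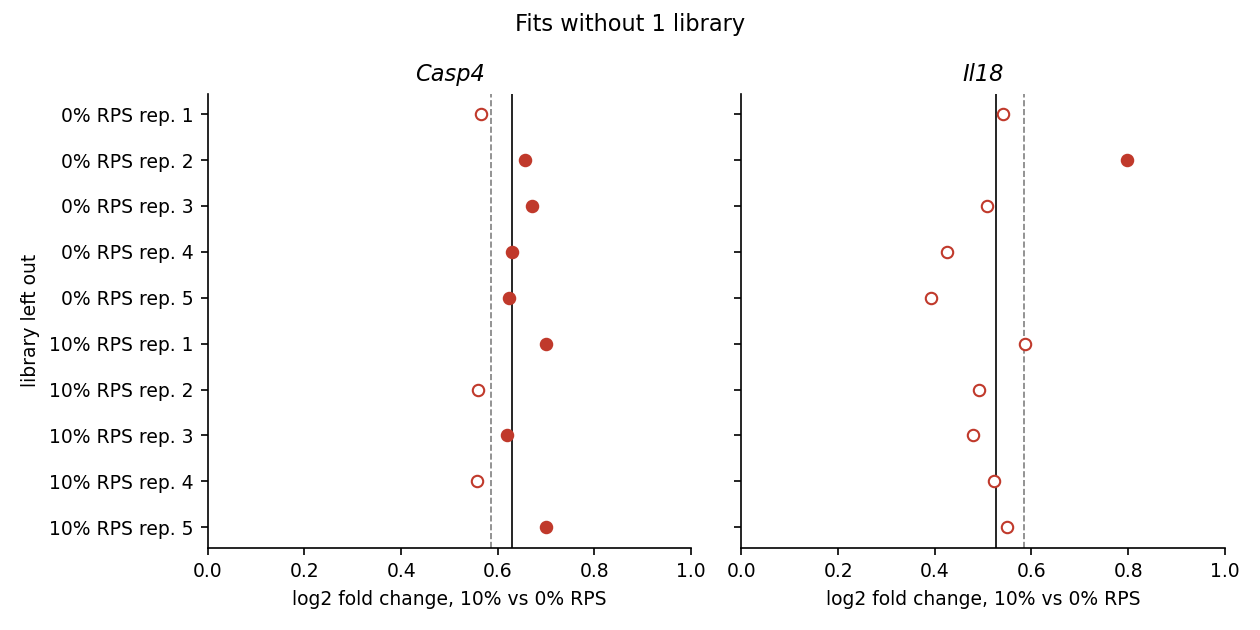
Log2 fold change of Casp4 and Il18 at 10% against 0% RPS (x axis) when each library named on the y axis was left out. Filled points passed the call, open points did not, the solid line is the value with all libraries, and the dashed line marks 1.5-fold. Casp4 lost the call in 3 of 10 fits, all close to the dashed line, and Il18 gained it in 1, without replicate 2 at 0% RPS.

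Nlrp6 and Pycard encode the sensor and the adaptor that act upstream of caspase-1, and neither was called at any level of RPS or along the slope. Nlrp6 (ENSMUSG00000038745, chromosome 7, 140500815 to 140509105, plus strand) ranged from 7007 to 7567 normalized counts at 0% RPS, from 6571 to 8575 at 2% RPS, from 6870 to 8441 at 5% RPS, and from 6681 to 7559.99 at 10% RPS. Its means were 7326 ± 235, 7257 ± 820, 7380 ± 665, and 7111 ± 364. These ranges overlap at every level. Of the 6 genes it had the narrowest spread in the TWD libraries, with a coefficient of variation of 3.21%. The log2 fold change at 10% RPS was −0.04 (95% interval −0.19 to 0.10, DESeq2 adjusted p = 0.785), and it took a positive sign with the epithelial covariate.

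Pycard (ENSMUSG00000030793, chromosome 7, 127588558 to 127593039, minus strand) measured 3283, 3115, 3357, 2888, and 3302 normalized counts at 0% RPS. At 5% RPS it measured 3599, 3543, 3570.4, 3347, and 3253, of which 3 were above the highest TWD library. At 10% RPS the values were 3239.55, 2949, 3278, 3092, and 2842, and no more than 1 of them lay above the lowest 5% RPS library. Against 0% RPS the log2 fold change was 0.12 at 5% RPS (adjusted p = 0.241) and −0.05 at 10% RPS (95% interval −0.16 to 0.06, adjusted p = 0.646, both DESeq2). Between 10% and 5% RPS it was −0.17 (−0.28 to −0.06), with an unadjusted p of 0.00189 and an adjusted p of 0.580 in DESeq2, so this difference failed the correction. Gm45205 overlaps Pycard on the opposite strand.

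Set side by side, the 6 log2 fold changes were positive at 5% RPS in 6 of 6 genes, with a median of 0.20 (−0.01 over all genes). At 10% RPS they were positive in 3 of 6, with a median of 0.04 (0 over all genes). At 2% RPS 4 of 6 were positive, with a median of 0.05 (−0.01 over all genes). At 5% RPS, Casp1 (0.013) and Nlrp6 (0.011) were near 0, and without replicate 2 at 0% RPS they became −0.059 and −0.0049. The share of all genes with a positive value was not counted. At 10% RPS the genes thus differed in sign, and the balance between them within a library was examined as a description chosen after the values were seen. The log2 ratio of Casp4 to Casp1 had a mean of −2.49 ± 0.27 at 0% RPS and −1.80 ± 0.19 at 10% RPS (SD, n = 5), and every 10% RPS library lay above every TWD library. The same held for the ratio to Nlrp6 (−3.26 ± 0.20 and −2.60 ± 0.29) and to Pycard (−2.05 ± 0.20 and −1.39 ± 0.298). The ratio to Gsdmd overlapped between the diets, with 3 of 5 libraries at 10% RPS above the highest TWD library. The ratio of Casp4 to Il18 had nearly the same mean at both levels, 0.86 at 0% RPS and 0.87 at 10% RPS, with SDs of 0.56 and 0.19. These ratios share the Casp4 values, which separate 0% from 10% RPS on their own, and are not separate evidence of its change. How often ratios of other genes separate these diets was not counted.

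The other genes of the pathway were read from 7 lists of sensors, caspases, gasdermins, cytokines and receptors, GTPases and receptors for LPS, regulators, and transcription factors. Of the 78 genes listed beside the 6, 55 were in the table, and the other 23, among them Nlrp3, Il1b, and Il1a, were not analysed here. Irf7 was the 1 gene of the 55 called at 10% RPS, and 0 were called at 2% and at 5% RPS with DESeq2 or with edgeR. Of all genes, 0.536% were called higher at 10% RPS, 0.334% at 5% RPS, and 0.0239% at 2% RPS in DESeq2. A count of 1 is too small to set the lists apart from this share. Before adjustment, 9 of the 55 had a p below 0.05 at 2% RPS, 16 at 5% RPS, and 15 at 10% RPS in DESeq2, and 9, 16, and 15 in edgeR. Over all genes the share at this level was 8.70%, 16.6%, and 18.8% in DESeq2. The median log2 fold change of the 55 was −0.02 at 2% RPS, 0.05 at 5% RPS, and 0.05 at 10% RPS, beside −0.01, −0.01, and 0 over all genes.

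Irf7, a transcription factor of the interferon response, reached 7641, 3479.9, 7146, 3099.7, and 5414 normalized counts at 10% RPS. The TWD libraries held 2512, 2427, 2414, 2084, and 1985. Every 10% RPS library was above every TWD library, which held for 1.35% of the 12576 genes with counts. The 10% RPS libraries spread widely (SD 2064 around a mean of 5356). The log2 fold change was 1.23 ± 0.20 (SE, DESeq2 adjusted p = 1.21e-06, edgeR 0.0105), and Irf7 was also called at 10% against 2% RPS (0.91, DESeq2 adjusted p = 0.0166) and against 5% RPS (0.91, adjusted p = 0.0337). edgeR called neither of the last comparisons (adjusted p = 0.370 and 0.9998). Phrf1 overlaps Irf7 on the opposite strand.

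Casp8 and Serpinb1a rose along the slope over RPS without reaching 1.5-fold. A rising slope was called for 2.40% of all genes in DESeq2. Casp8 encodes caspase-8, the initiator of death receptor signaling, and measured 3313, 3387, 3675, 2659, and 2418 normalized counts at 0% RPS. At 10% RPS it measured 4051, 3885, 3855, 3625, and 4532, of which 4 were above the highest TWD library. Its slope was 0.038 per percentage point (DESeq2 adjusted p = 0.0221, edgeR 0.0772), and its log2 fold change at 10% RPS was 0.37 (DESeq2 adjusted p = 0.0525). Without replicate 4 or 5 at 0% RPS, or replicate 5 at 10% RPS, its slope was no longer called, which left 2 pathway genes. Of its windows, 3.62% occur in another gene, and Gm37760 overlaps it on the same strand. Serpinb1a, an inhibitor of neutrophil proteases, ranged from 7683 to 10208 at 0% RPS and from 11436 to 12144 at 10% RPS. These ranges do not overlap, and 1.35% of the 12576 genes with counts had every 10% RPS library above the highest 0% RPS library. The slope was 0.035 (DESeq2 adjusted p = 0.0128, edgeR 0.0650), and the log2 fold change was 0.42 at 10% RPS (DESeq2 adjusted p = 0.000358). Of its windows, 2.53% are shared, mainly with its close copies Serpinb1c and Serpinb1b, and Wrnip1 overlaps it on the opposite strand.

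The medians of the 7 lists at 10% RPS lay between −0.02 and 0.19, and Irf7 was the only gene called. Among 10 sensors beside Nlrp6, log2 fold changes at 10% RPS ran from −0.13 to 0.22, and the most abundant, Naip1, a sensor of bacterial secretion systems, had 0.14 (DESeq2 adjusted p = 0.563). Among 4 further caspases they ran from −0.32 for Casp12 to 0.37 for Casp8. The 5 further gasdermin and membrane rupture genes ran from −0.36 to 0.16, with 0.16 for Gsdmc4, the most abundant (adjusted p = 0.620). Of their 50-base windows, 31.5% for Naip1 and 38.998% for Gsdmc4 also occur in other genes, mainly of their own families, so their counts are uncertain. Among 5 cytokine and receptor genes, Sigirr, a negative regulator of IL-1 family receptors, was the most abundant (−0.14, adjusted p = 0.147). Among the 10 genes for access of LPS, Irgm1 had 0.07 (adjusted p = 0.705), and Gbp6, singled out after its values were seen, had 0.62 from means of 15.6 and 23.7 normalized counts (adjusted p = 0.352). Txnip, which binds thioredoxin and NLRP3, had −0.28 (adjusted p = 0.346), and the transcription factor Irf1 had 0.28 (adjusted p = 0.0857, all DESeq2).

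**Figure D4:**
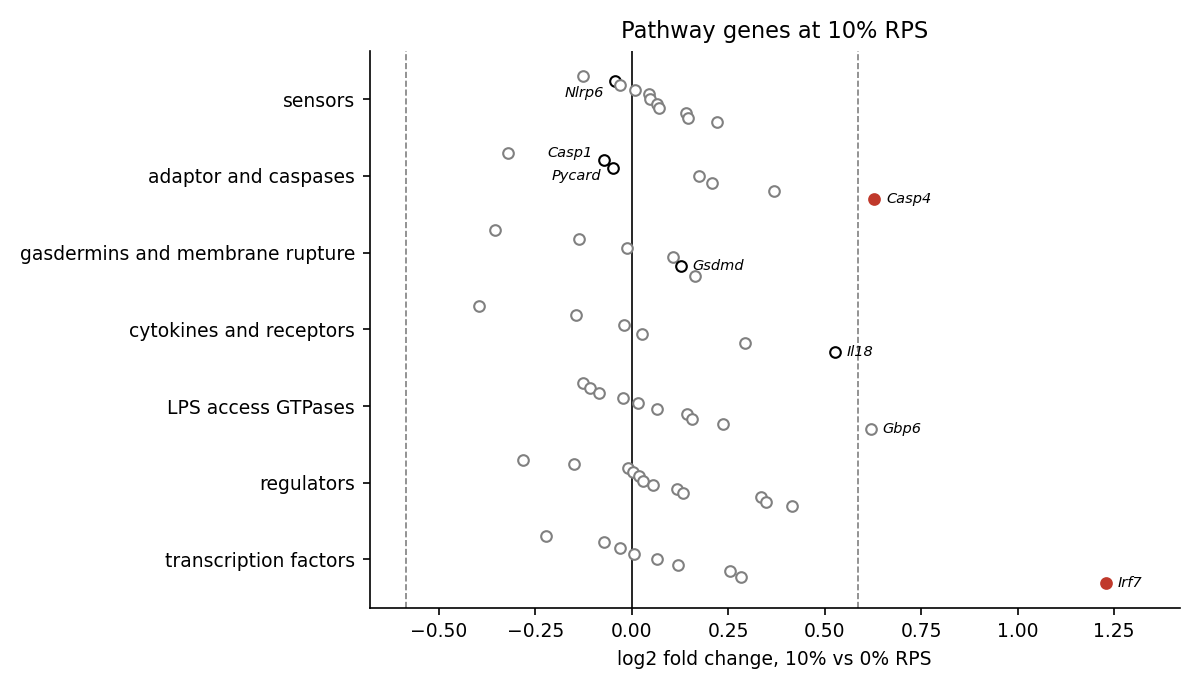
Log2 fold change at 10% against 0% RPS (x axis) of the 6 genes and the 55 other pathway genes, in rows by list. Filled red points were called changed (Casp4 and Irf7), black open points are the other 5 of the 6 genes, grey points are further list genes, and dashed lines mark 1.5-fold. Gbp6 (0.62) lies beyond the line without passing the test.

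The 6 genes were compared for variation in common across the 20 libraries, using log2 normalized counts and 15 pairs. Casp4 and Il18 had the highest correlation, with a Pearson r of 0.59 (permutation test, two-sided, p = 0.00659, adjusted over 15 pairs 0.0988) and a Spearman rho of 0.67 (permutation p = 0.0018, adjusted 0.0270). Without the 2 libraries farthest from the median of Casp4, r was 0.63, and with each diet centred on its mean it was 0.52 (permutation p = 0.0171, adjusted 0.144). The relation therefore passed the correction by rank and failed it by Pearson's r. The rank test did not take diet into account, and no rank test with the diets centred was run. The next pairs were Casp1 with Gsdmd (r = 0.45, adjusted permutation p = 0.301), for which r fell to 0.07 without the 2 farthest libraries, and so rests on them, and Il18 with Nlrp6 (r = −0.39, adjusted permutation p = 0.346). Casp4 and Casp1 had an r of 0.19 over all libraries and 0.55 with the diets centred (adjusted permutation p = 0.144). Pearson's r passed for 0 of 15 pairs. With the mean log2 level of the small intestine markers, r was 0.77 for Gsdmd and 0.63 for Casp1 (−0.14 to 0.34 for the others). Replicate 2 at 0% RPS had the lowest sum of these markers and the lowest Gsdmd and Casp1. With the B and plasma cell markers, r was 0.64 for Il18 (−0.57 to 0.34 for the others). The part of tissue mix in this variation was not tested.

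**Figure D5:**
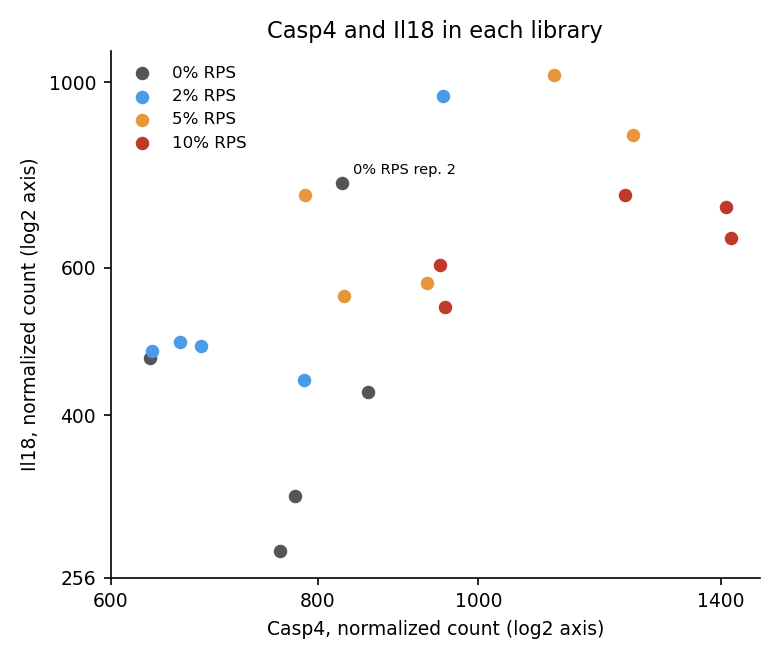
Normalized counts of Casp4 (x axis) and Il18 (y axis) in the 20 libraries, both on log2 axes and colored by diet. Libraries high in Casp4 tend to be high in Il18 (r = 0.59), and replicate 2 at 0% RPS has the highest Il18 of its diet at an intermediate Casp4.

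For each gene, the 3 most similar patterns were sought by Pearson's r over the 20 libraries among 11540 genes with a mean of at least 100 normalized counts. They are a description, since libraries, depth, and diet are shared by all genes. Casp4 was most like Eps8 (r = 0.86), an actin regulator of microvilli, Ccdc186 (0.84), and Plekhm1 (0.80), while its median r with all genes was 0.01. Casp1 was most like the iron exporter gene Slc40a1 (0.88), Txnrd3 (0.87), and Ugt2b34 (0.81). Gsdmd was most like Slc44a4 (0.90), Tmem54 (0.88), and Amdhd2 (0.88), and Il18 most like Pla2g5 (0.92), B3galt5 (0.89), and Gna14 (0.87). The genes nearest to Nlrp6 were Ptcd1 (0.83), Sult1a1 (0.82), and Kat8 (0.80), and those nearest to Pycard were Aven (0.83), Tarbp2 (0.78), and Ndufs3 (0.77). None of the 6 genes was among the 3 nearest to another. With the diets centred, r stayed at 0.78 for Casp4 with Eps8 and at 0.91 for Il18 with Pla2g5.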

How the data were processed

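RNA from a segment of the PC was sequenced as single-end reads from stranded mRNA libraries. The deposited values are raw read counts per Ensembl gene, which the authors made with CLC Genomics Workbench, and the submitters' processing notes name the assembly GRCm39. The annotation, the use of strand, the handling of multi-mapping reads, and the gene filter are not given in the sources used here. Libraries were grouped by their labels, which do not say that they came from separate animals, so p-values measure the spread between these libraries.

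DESeq2 (version 1.42.0, R version 4.3.3), the tool the study used, was fitted to all 20 libraries and 12701 genes with diet as the only term, and with Benjamini-Hochberg adjustment over the table. Confidence intervals are those of the Wald test (95%). edgeR (version 4.0.16, quasi-likelihood) was the alternative. Counts were normalized with DESeq2 size factors. TPM, coordinates, and shared 50-base windows used GENCODE release M39, which held 12682 of the gene identifiers. Correlations used log2(normalized count + 1) and 100000 permutations. The fits were tested on simulated data, and Python (version 3.11.15) was used for figures.

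The 6 genes, the pathway and marker lists, and the tests were chosen with earlier results of these data known. Named were the 6 genes, each pathway gene that passed a call, the most abundant gene of each list that did not, and the 3 genes most correlated with each of the 6, except where a gene is not reported here. Other settings tried were TMM factors, a minimum of 10 counts in 5 libraries, independent or Cook filtering off, no fold threshold, only the diets compared, the epithelial covariate, and omission of single libraries or of 3 libraries with label numbers far from the other 17. Independent filtering was also switched off, chosen after seeing the data, in alternatives where a gene received no adjusted p.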

Additional observations from a re-analysis of the deposited data

Results flagged for a closer look

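In the 2% RPS diet, Il18 was far higher in replicate 5 (962 normalized counts) than in the other 4 libraries (441 to 489). The gap to the nearest library was 0.908 of the range of the diet, above the critical value of 0.71 (Dixon). Of 36 groups tested, which were the 6 genes and Irf7, Casp8, and Serpinb1a in 4 diets, this was the only one, and chance alone gives about 1 in 20. Replicate 5 is 1 of the 3 libraries with a label number far from the others, and it also had the highest Casp4 value of its diet, 952. The other 2 are replicates 4 and 5 at 10% RPS, with the highest (1419.5) and the lowest (948) Casp4 value of that diet. No such label occurs at 0% or 5% RPS, so these libraries are unevenly spread over the diets. The labels do not say what the numbers stand for.

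The effect of RPS on Casp4 differed between levels, with a log2 fold change of 0.68 between 10% and 2% RPS (DESeq2 adjusted p = 0.0166), which edgeR did not call (adjusted p = 0.314). Irf7 differed likewise, by 0.91 between 10% and 2% RPS and by 0.91 between 10% and 5% RPS, with DESeq2 only.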

How the results depend on the processing

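Over all settings, 214 of 232 counts of called genes or pairs and 305 of 324 log2 fold changes kept their direction and side of the threshold. Of the other fold changes, 9 did not keep the call, 2 gained it, and 8 changed sign, all of the last in Casp1 or Nlrp6 and near 0. For those, Nlrp6 at 10% against 0% RPS became 0.038 with the epithelial covariate. With 1 library left out, Casp1 at 5% against 0% RPS ranged from −0.059 to 0.051, with −0.02 and −0.01 without replicate 3 and 4 at 5% RPS, Nlrp6 at 5% against 0% RPS from −0.042 to 0.035, with −0.0049 without replicate 2 at 0% RPS and −0.00094 without replicate 5 at 5% RPS, and Nlrp6 at 10% against 2% RPS from −0.063 to 0.037.

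Of the 6 genes, edgeR called 0 at 10% against 2% RPS, where DESeq2 called 1 (Casp4). Pathway genes with a slope over RPS numbered 3 with DESeq2 and 1 (Irf7) with edgeR, with only the 2, 5, and 10% RPS diets, or with the epithelial covariate. Over all genes, 538 of 12545 had a called slope in DESeq2 and 165 of 12366 in edgeR. Without a fold threshold, 3 pathway genes passed at 5% RPS (Serpinb1a, Trim31, and Irf8) and 4 at 10% RPS, with Serpinb1a and Irf7 among them. The share of all genes passing without this threshold was not counted. By Spearman's rho, 1 pair of the 6 genes passed, in a test that did not take diet into account. With 1 library left out, the 6 genes gave 0 to 1 calls at 5% RPS, 0 to 2 at 10% RPS, and 0 to 1 at 10% against 2% RPS. The slope was called for 2 to 5 pathway genes, with 5 without replicate 3 at 5% RPS. The causes were not tested.

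Across the 18 alternatives, the log2 fold change of Casp4 at 10% RPS lay between 0.56 and 0.70, with adjusted p values from 0.00143 to 0.0440, and the call held in 15. No paired analysis was possible because replicates carry no number in common across diets in the labels. The precision is limited by the 5 libraries per diet and by the spread between them. Counting error was relatively largest for Il18 and Casp4, the lowest of the 6 genes, which still had at least 266 and 483 counts in each library.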
